A study of Mus musculus with 8 samples.

Results

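The circadian clock of the liver was followed through 10 genes, 7 of the core feedback loops (Arntl, Npas2, Per1, Per2, Cry1, Nr1d1 and Nr1d2) and 3 output transcription factors of the PAR bZIP family (Dbp, Tef and Hlf). They were chosen by gene symbol, and each of the 10 was found among the 24062 gene entries of the count tables. Ribosomal RNA-depleted total RNA of mouse liver was sequenced in 8 libraries, 2 in each of 4 groups. The groups were shDnajb9, an adenovirus carrying a short hairpin RNA against the endoplasmic reticulum co-chaperone Dnajb9, with its control virus lacZ1, both in 3-month-old mice, and shRictor, a hairpin virus against the mTOR complex 2 subunit Rictor, with its control virus lacZ2, both in 4-month-old mice. In every group the mice were lean wild-type C57BL/6 animals that had received 0.1 OD of virus and whose livers were taken 1 week later, food having been withdrawn for 6 h. They were kept under 12 h of light and 12 h of dark. The labels give neither the hour of killing nor the number of animals behind a library pair, so p-values measure only the spread between these libraries. No library here came from mice without virus, and the labels do not say what the lacZ viruses expressed. An adenovirus reaches mainly hepatocytes, whereas the RNA came from whole liver. In bulk RNA, fewer cells of a type and less RNA per cell cannot be told apart.

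The mammalian clock is a loop of transcription factors. BMAL1, the product of Arntl, pairs with CLOCK or with NPAS2, binds E-box sequences and activates the Per, Cry and Nr1d genes as well as Dbp, Tef and Hlf. PER and CRY proteins block that pair, the REV-ERB receptors encoded by Nr1d1 and Nr1d2 repress Arntl, and the ROR receptors activate it. The PAR bZIP factors bind D-box sequences and drive genes of detoxification and lipid and bile acid metabolism in the liver, and the transcripts of these genes rise and fall over the day at different hours.

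The 250 bases upstream of the RefSeq start sites (GRCm38.p6, a patch release of the assembly that mm10 names) were searched for clock-related motifs, and 9 of the 10 genes were matched in that table, with 12 start sites in all, Per2 being the exception. The upstream sequences shown are those of the 4 genes that were called higher in at least 1 comparison below, Dbp, Tef, Hlf and Nr1d2, and of Per1, which was called in none and carried the most matches. Bases that GENCODE M21 gives as exon of the gene are left out, and capitals mark matches to the motifs on either strand.
Dbp: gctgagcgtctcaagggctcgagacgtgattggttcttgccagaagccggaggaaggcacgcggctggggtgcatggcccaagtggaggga
Tef, second start: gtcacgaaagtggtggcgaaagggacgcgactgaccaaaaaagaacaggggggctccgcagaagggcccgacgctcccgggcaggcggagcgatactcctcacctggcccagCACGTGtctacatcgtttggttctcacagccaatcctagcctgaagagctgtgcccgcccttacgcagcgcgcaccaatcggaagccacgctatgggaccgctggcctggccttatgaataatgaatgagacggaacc
Hlf: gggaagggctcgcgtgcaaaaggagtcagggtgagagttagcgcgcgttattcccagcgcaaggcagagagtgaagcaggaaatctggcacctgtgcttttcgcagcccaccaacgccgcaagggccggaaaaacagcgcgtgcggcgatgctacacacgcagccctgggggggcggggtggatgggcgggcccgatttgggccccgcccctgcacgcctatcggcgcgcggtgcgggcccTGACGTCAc
Nr1d2: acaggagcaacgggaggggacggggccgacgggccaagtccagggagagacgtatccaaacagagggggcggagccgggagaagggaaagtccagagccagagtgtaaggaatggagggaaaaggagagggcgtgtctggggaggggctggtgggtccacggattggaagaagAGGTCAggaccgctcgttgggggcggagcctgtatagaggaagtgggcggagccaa
Per1, first start: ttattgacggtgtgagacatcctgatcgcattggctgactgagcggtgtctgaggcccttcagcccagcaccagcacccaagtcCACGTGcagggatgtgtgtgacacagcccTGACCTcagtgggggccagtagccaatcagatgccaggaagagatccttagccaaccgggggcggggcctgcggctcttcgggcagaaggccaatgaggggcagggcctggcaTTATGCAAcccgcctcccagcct
These are chr7:45704997-45705087 (plus strand) for Dbp, chr15:81811164-81811413 (plus) for Tef, chr11:90390918-90391167 (minus) for Hlf, chr14:18239128-18239356 (minus) for Nr1d2 and chr11:69098699-69098947 (plus) for Per1. The E-box CACGTG stood 138 bases upstream of the second start of Tef, 166 bases upstream of the first start of Per1 and 60 bases upstream of the start of Cry1. The first start of Tef also had one, 127 bases upstream, in sequence that GENCODE gives as exon. Of 32851 mouse windows of that length, 6.02% held an E-box. Hlf carried the cyclic AMP response element TGACGTCA at 9 bases upstream (1.55% of windows). Nr1d2 carried AGGTCA, a nuclear receptor half-site that ROR and REV-ERB share with other receptors, at 77 bases upstream (14% of windows). The bases flanking the half-site were not searched. Per1 had in addition the same half-site, read as TGACCT on the strand shown, at 137 bases and the D-box type motif TTATGCAA, a match to TTATGNAA, at 24 bases (3.07% of windows). None of the 4 motifs was found in the windows of Dbp, Arntl, Npas2 and Nr1d1 or at the second start of Per1, and no matches overlapped.

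Library quality sets the background of every value below. The libraries held between 6426164 and 11383532 counts assigned to genes, and in no group were the 2 libraries alike within counting error (chi-square of 18.2 to 51.98 for each degree of freedom). Reads that mapped to more than 1 place and were not counted made up 41.3% and 42.0% of all reads in shDnajb9 and 22.9% and 24.9% in lacZ1, and 32.7% and 26.7% in shRictor and 24.6% and 24.2% in lacZ2. The first libraries of shDnajb9 and of lacZ2 stood apart in Rpph1, the RNA of ribonuclease P, with 4.70% and 4.26% of gene counts against 1.11% to 2.03% in the other 6. Levels are given as CPM, a count scaled to library size with TMM factors. Dnajb9 itself had 22.0 and 20.3 CPM in shDnajb9 and 30.6 and 38.0 CPM in lacZ1 (log2 fold change -0.70, adjusted p = 0.056 by edgeR). Rictor had 40.1 and 42.0 CPM in shRictor and 52.3 and 65.2 CPM in lacZ2 (-0.52, adjusted p = 0.231 by edgeR). Neither target passed the threshold, although every hairpin library was below its controls. The 6 hepatocyte markers summed to 65270 and 49760 CPM in shDnajb9 against 34310 and 46550 CPM in lacZ1, and to 50350 and 54870 CPM in shRictor against 19080 and 36530 CPM in lacZ2. Of these 6, 5 were called higher in shDnajb9 and 3 in shRictor. The markers did not move alike. Alb had 22420 and 25510 CPM in shDnajb9, below 26250 and 35450 CPM in lacZ1, while Apoa1 had 18040 and 9354 CPM, above 2804 and 3569 CPM. In shRictor Alb had 26540 and 36970 CPM against 12020 and 28030 CPM in lacZ2, and Apoa1 9929 and 6776 CPM against 2747 and 2530 CPM. The 6 proliferation markers, all 6 of them called lower in both contrasts, summed to 66.5 and 101 CPM in shDnajb9 against 602 and 744 CPM in lacZ1, and to 59.3 and 100 CPM in shRictor and 440 and 500 CPM in lacZ2. The 6 neutrophil markers summed to 0.419 and 0.571 CPM in shDnajb9 and 24.6 and 5.61 CPM in lacZ1 (4 of 5 tested called lower), and to 1.53 and 4.30 CPM in shRictor and 13.1 and 3.64 CPM in lacZ2 (1 of 5). As raw counts these sums were only 2 and 5 reads in shDnajb9 and 13 and 44 reads in shRictor. Each shDnajb9 sum was below the low-count cutoff of 1.06 CPM, so no neutrophil marker entered the test through these libraries. The direction of these calls is therefore not independent of the filter. Of the 6 macrophage, 6 lymphocyte and 6 stellate cell markers 1, 1 and 2 were called lower in shDnajb9 and 1, 2 and 1 in shRictor, and of 4 tested cholangiocyte markers 2 and 0. Of 6 endothelial markers and 1 tested pancreas marker 1 each was called higher in shDnajb9 and none in shRictor. Of all tested genes, 11.6% were called higher and 12.6% lower in shDnajb9, and 7.31% and 10.9% in shRictor. Against these shares, counts of 1 or 2 of 6 differ by few genes and are not read as changes of a cell type. The part of the marker differences in the values of the clock genes was not tested, and the counts per hepatocyte marker given below are only another scale.

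**Figure D1:**
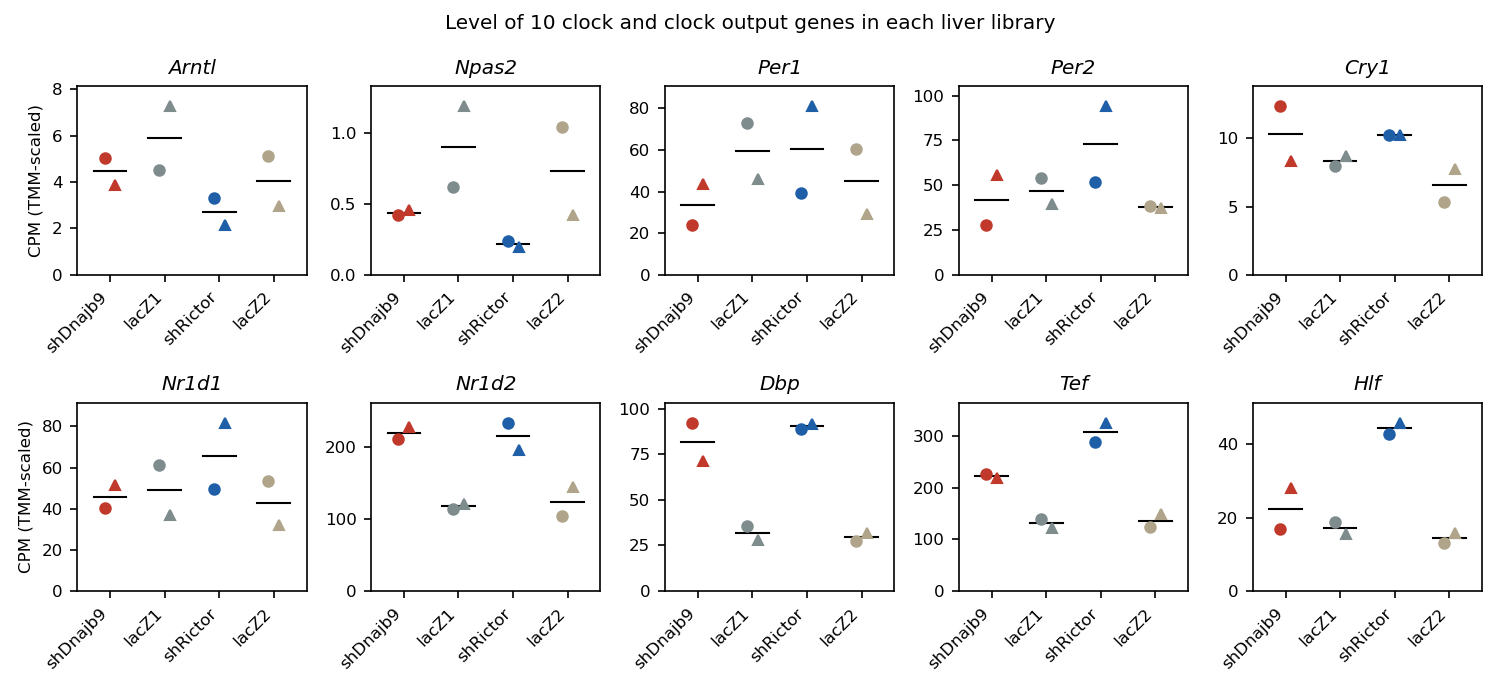
Level in CPM (TMM-scaled, linear axes from 0) of the 10 clock genes in each of the 8 libraries, with shDnajb9 left of its control lacZ1 and shRictor left of its control lacZ2. Circles are replicate 1, triangles replicate 2 and lines the mean of the 2 libraries, and every hairpin library lies above every lacZ library for Nr1d2, Dbp and Tef.

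Per kilobase of annotated exon, so that genes can be set side by side, Nr1d2, Tef, Dbp and Nr1d1 stood highest, with a mean over the 8 libraries of 31.2, 25.3, 19.5 and 16.5 CPM per kb. Per1 and Per2 followed with 8.81 and 8.52 CPM per kb, then Hlf with 3.69 and Cry1 with 2.66 CPM per kb. The order turned with the group for Dbp and Nr1d1: Dbp averaged 27.27 and Nr1d1 14.89 CPM per kb in shDnajb9, against 10.64 and 15.99 in lacZ1, and 30.2 and 21.32 CPM per kb in shRictor, against 9.92 and 13.85 in lacZ2. Arntl had 0.569 and Npas2 0.120 CPM per kb. The libraries of Per1 ran between 4.21 and 14.4 CPM per kb and those of Per2 between 4.76 and 16.1 CPM per kb, so the ranges of these neighbours overlapped. The same held for Nr1d2 (19.1 to 43.1 CPM per kb) and Tef (15.6 to 41.4 CPM per kb) and for Tef and Dbp (9.13 to 30.8 CPM per kb). Nr1d1 (10.4 to 26.6 CPM per kb) overlapped Dbp as well. These ranges pool the groups. Within a library Nr1d2 was above Tef in all but shRictor replicate 2, and Tef above Dbp in all but shDnajb9 replicate 1. The highest library of Hlf was at 6.87 CPM per kb, and that of Cry1 at 3.70 CPM per kb. Arntl lay between 0.286 and 0.967 CPM per kb, with no library in reach of the 8 genes above it, and no library of Npas2 was above 0.249 CPM per kb.

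The first question was what each hairpin did to the clock relative to its own control virus. In shDnajb9 livers 2 of the 10 genes rose relative to lacZ1, Dbp and Nr1d2. In shRictor livers 3 rose relative to lacZ2, Dbp, Tef and Hlf. With these settings no clock gene was called lower in either contrast by edgeR, DESeq2 or limma-voom. The genes with an unadjusted p under 0.05 in edgeR, 3 in shDnajb9 and 6 in shRictor, all had positive log2 fold changes. The share of all tested genes under that unadjusted threshold was not computed for any contrast, and it cannot be below the share called. Without the filter on low counts edgeR called Per1 lower in shDnajb9. The threshold for a call was 0.05 on the p of edgeR's quasi-likelihood test, adjusted by Benjamini and Hochberg's method over all 13767 tested genes, with all 8 libraries in a single fit. Of all tested genes, 24.2% were called in shDnajb9 minus lacZ1, 11.6% higher and 12.6% lower, and 18.2% in shRictor minus lacZ2, 7.31% higher and 10.9% lower. Against these shares the counts of 2 and 3 of 10 differ by few genes. The median log2 fold change of the 10 genes was 0.09 in shDnajb9, against -0.05 over all tested genes, and 0.71 in shRictor, against -0.02 over all tested genes. With total counts in place of TMM these medians were -0.34 in shDnajb9 and 0.32 in shRictor, against -0.46 and -0.42 over all tested genes. Leaving out either lacZ1 or either shDnajb9 library lowered the number called in shDnajb9, and leaving out either lacZ2 library raised it. In shRictor 5 were called with DESeq2. By edgeR the number in shRictor was also larger without either shDnajb9 library, and smaller without lacZ2 replicate 1 or shRictor replicate 2. The mean of both contrasts, which uses the same 8 libraries and adds no new ones, called 4 of the 10 higher (Nr1d2, Dbp, Tef and Hlf) and none lower (also none with DESeq2 or limma-voom), beside 16.7% of all tested genes higher and 19.5% lower. The hairpin contrasts share no library. All 10 genes passed the filter on low counts, 9 of them at the cutoff of 1.06 CPM in every library, while Npas2 passed through 1 library of lacZ1 and 1 of lacZ2.

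**Figure D2:**
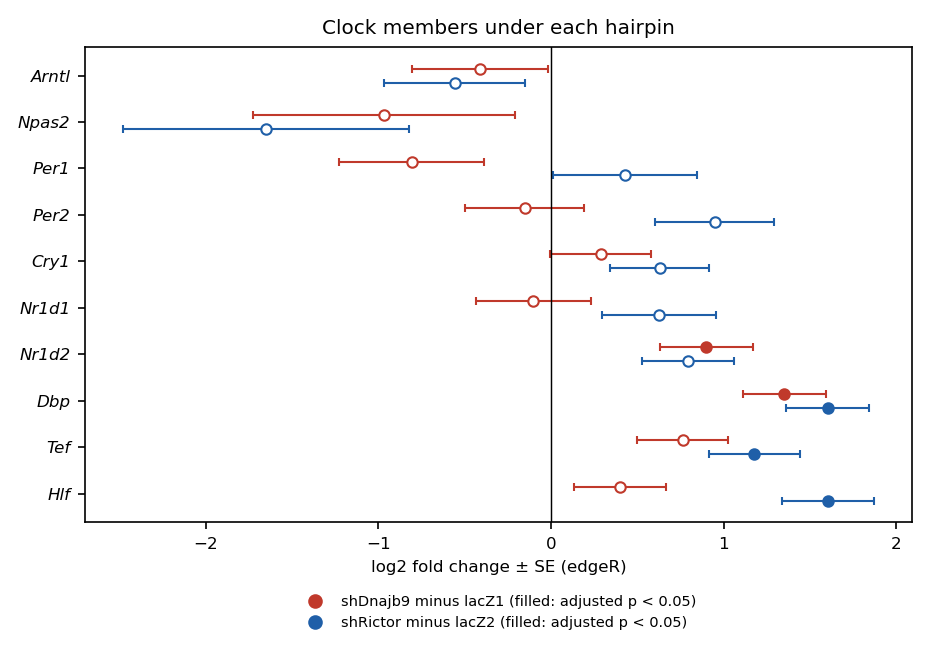
Log2 fold change with its standard error (edgeR, n = 2 libraries per group) of each clock gene in shDnajb9 minus lacZ1 (red, upper of each pair) and shRictor minus lacZ2 (blue, lower). Points are filled at an adjusted p under 0.05: Dbp is filled in both contrasts, Nr1d2 in shDnajb9, and Tef and Hlf in shRictor, and none of these 4 differed between the contrasts at an adjusted p of 0.05.

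Dbp, the D-site binding protein and the textbook direct target of CLOCK and BMAL1 in liver, had 92.2 and 71.0 CPM in shDnajb9 and 35.5 and 28.3 CPM in lacZ1. In shRictor it had 89.0 and 91.8 CPM and in lacZ2 27.3 and 32.1 CPM. Every hairpin library was at least at 71.0 CPM and no lacZ library was above 35.5 CPM. It rose by 1.35 ± 0.24 on the log2 scale in shDnajb9 (SE, n = 2 libraries per group, 2.55-fold, adjusted p = 0.00204 by edgeR) and by 1.60 ± 0.24 in shRictor (3.04-fold, adjusted p = 0.000737 by edgeR). Dbp was called under all 18 alternative settings in each contrast, with adjusted p-values up to 0.0299 in shDnajb9 and 0.0149 in shRictor. Dbp lies at chr7:45705088-45710203 on the plus strand. Sphk2, a sphingosine kinase gene on the opposite strand, overlaps 539 exonic bases, 18.0% of the exon sequence of Dbp. The strand setting of the counting is not given in the sources used here, so reads of the shared stretch cannot be assigned to one gene. Sphk2 itself had a log2 fold change of 0.14 in shDnajb9 (adjusted p = 0.702 by edgeR) and 0.55 in shRictor (adjusted p = 0.149 by edgeR).

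Tef, thyrotroph embryonic factor, had 225.8 and 219.4 CPM in shDnajb9 and 139.2 and 122.9 CPM in lacZ1. The shRictor libraries had 289.1 and 325.9 CPM, and lacZ2 had 123.3 and 148.4 CPM. Every hairpin library was again above every lacZ library. Tef rose by 1.18 ± 0.26 on the log2 scale in shRictor (SE, 2.26-fold, adjusted p = 0.00851 by edgeR). Its log2 fold change of 0.76 ± 0.26 in shDnajb9 missed the threshold narrowly (adjusted p = 0.0507 by edgeR), and DESeq2 and limma-voom gave adjusted p-values of 0.0113 and 0.0369 there. The shRictor call was lost without lacZ2 replicate 1 (1.05, adjusted p = 0.0655) and without shRictor replicate 2 (1.09, adjusted p = 0.0605) in the edgeR fit. The mean of both contrasts was 0.97 ± 0.19 (adjusted p = 0.00159 by edgeR).

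Hlf, hepatic leukaemia factor, had 42.9 and 45.9 CPM in shRictor and 13.1 and 15.9 CPM in lacZ2, with no overlap. In shDnajb9 it had 17.0 and 28.0 CPM and in lacZ1 18.8 and 15.6 CPM, so those groups overlapped. It rose by 1.61 ± 0.27 on the log2 scale in shRictor (SE, 3.05-fold, adjusted p = 0.00141 by edgeR), a call that held under all 18 alternatives. In shDnajb9 the log2 fold change was 0.40 ± 0.27 (adjusted p = 0.285 by edgeR). The shRictor contrast exceeded the shDnajb9 contrast by 1.21 ± 0.38, the largest such difference relative to its error among the 10 genes. It had an unadjusted p of 0.00676 in the edgeR model and an adjusted p of 0.394, and so did not pass.

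The core loop genes fell into those with close and those with wide-apart replicates. Nr1d2, which encodes the repressor REV-ERB beta, had 210.3 and 228 CPM in shDnajb9 and 114.3 and 120.8 CPM in lacZ1. It had 233.3 and 196 CPM in shRictor and, in lacZ2, 103.5 and 143.8 CPM. The hairpin libraries all lay above the lacZ libraries. It rose by 0.90 ± 0.27 on the log2 scale in shDnajb9 (SE, adjusted p = 0.029 by edgeR). In shRictor its log2 fold change was 0.80 ± 0.27 (adjusted p = 0.0558 by edgeR), and DESeq2 (0.82, adjusted p = 0.0178) and limma-voom (0.83, adjusted p = 0.0451) called it there. Over both contrasts the mean was 0.85 ± 0.19 (adjusted p = 0.0041 by edgeR). The shDnajb9 call was lost in the fits without single libraries of that comparison: without lacZ1 replicate 1 or 2 or shDnajb9 replicate 1 or 2 the adjusted p was 0.222, 0.116, 0.0686 or 0.0552 in edgeR, with log2 fold changes between 0.83 and 0.96. With total counts in place of TMM the log2 fold change in shDnajb9 was 0.48 (adjusted p = 0.156 by edgeR) and the mean 0.44 (adjusted p = 0.0581 by edgeR), while the medians of all genes moved to -0.46 and -0.44. Of the 50-base stretches of Nr1d2, 5.13% also occur in other genes, and none of those of the other 9 genes do.

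Nr1d1, which encodes the other REV-ERB receptor and shares 263 exonic bases with Thra on the opposite strand, had 40.3 and 51.4 CPM in shDnajb9 and 61.3 and 37.1 CPM in lacZ1. In shRictor it had 49.5 and 81.8 CPM and in lacZ2 53.3 and 32.0 CPM. The groups overlapped in both comparisons, and the log2 fold changes were -0.10 ± 0.33 (adjusted p = 0.845 by edgeR) and 0.63 ± 0.33 (adjusted p = 0.219 by edgeR). The count of Nr1d2 over that of Nr1d1 was 5.22 and 4.44 in shDnajb9, against 1.86 and 3.26 in lacZ1. The same ratio was 4.72 and 2.40 in shRictor, against 1.94 and 4.50 in lacZ2.

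Per1 and Per2 encode the period proteins, inhibitors of the CLOCK and BMAL1 pair. Per1 had 23.7 and 43.7 CPM in shDnajb9 and 72.8 and 46.2 CPM in lacZ1, with both hairpin libraries lower. The shRictor libraries, with 39.4 and 81.1 CPM, overlapped those of lacZ2, with 60.6 and 29.4 CPM. The log2 fold changes were -0.81 ± 0.42 in shDnajb9 (adjusted p = 0.174 by edgeR) and 0.43 ± 0.42 in shRictor (adjusted p = 0.527 by edgeR). Per1 was called lower in shDnajb9 without the filter on low counts (-0.82, adjusted p = 0.0186 by edgeR) and with the crossed replicate block (-0.85, adjusted p = 0.00754 by edgeR), in which the replicate numbers of the hairpin groups were swapped. Per2 had 27.9 and 55.9 CPM in shDnajb9 and 54.1 and 39.7 CPM in lacZ1. Its shRictor libraries had 51.8 and 94.1 CPM and its lacZ2 libraries 38.4 and 37.3 CPM. Both shRictor libraries were above both lacZ2 libraries, and the shDnajb9 libraries lay on either side of their controls. The log2 fold changes were -0.15 ± 0.34 in shDnajb9 (adjusted p = 0.773 by edgeR) and 0.95 ± 0.34 in shRictor (adjusted p = 0.0757 by edgeR). DESeq2 called Per2 higher in shRictor (0.98, adjusted p = 0.0469), and edgeR did so without shRictor replicate 1 (1.32, adjusted p = 0.0385) or without either shDnajb9 library (0.95, adjusted p = 0.0283 and 0.0289). The difference between the contrasts was 1.24 ± 0.59 for Per1 and 1.10 ± 0.49 for Per2, with adjusted p-values of 0.469 and 0.451 by edgeR.

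Cry1, a cryptochrome that acts with the period proteins, had 12.4 and 8.34 CPM in shDnajb9 and 7.98 and 8.71 CPM in lacZ1. It had 10.2 and 10.3 CPM in shRictor, above the 5.35 and 7.79 CPM of lacZ2. The log2 fold changes of 0.29 ± 0.29 and 0.63 ± 0.29 did not pass (adjusted p = 0.487 in shDnajb9 and 0.153 in shRictor by edgeR), nor did their mean of 0.46 ± 0.21 (adjusted p = 0.0974 by edgeR).

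Arntl and Npas2, the activators of the loop, had the lowest levels. Arntl had 5.03 and 3.88 CPM in shDnajb9 and 4.52 and 7.27 CPM in lacZ1. In shRictor it had 3.30 and 2.15 CPM and in lacZ2 5.12 and 2.96 CPM. Each comparison overlapped, at raw counts between 22 and 61 per library. The log2 fold changes were -0.41 ± 0.39 (adjusted p = 0.458 by edgeR) in shDnajb9 and -0.56 ± 0.41 (adjusted p = 0.388 by edgeR) in shRictor. Npas2, the partner that can replace CLOCK, had raw counts of 2 and 4 in shDnajb9 and 7 and 10 in lacZ1, and of 2 and 2 in shRictor and 9 and 5 in lacZ2. Each hairpin library was lower than its 2 controls, in a gene that entered the test through lacZ libraries. The log2 fold changes were -0.97 ± 0.76 (adjusted p = 0.358 by edgeR) and -1.65 ± 0.83 (adjusted p = 0.194 by edgeR). With total counts in place of TMM, the mean of both contrasts passed for Arntl (-0.90, adjusted p = 0.0321) and Npas2 (-1.71, adjusted p = 0.0306) in edgeR, where the median of all genes was -0.44.

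Counted as libraries that do not overlap, 3 of the 10 genes were higher and 2, Per1 and Npas2, lower in both shDnajb9 libraries than in both lacZ1 libraries, beside 32.4% and 35.1% of all tested genes (67.5% in either direction). In shRictor 6 were higher than in lacZ2 and 1, Npas2, lower, beside 28.8% and 31.6% of all tested genes (60.4% in either direction). Npas2 entered the test through lacZ libraries alone, so its direction in these counts is not independent of the filter. Across all 4 hairpin and all 4 lacZ libraries 3 genes were higher in every hairpin library, Nr1d2, Dbp and Tef, and none lower, beside 16.2% and 17.9% of all tested genes (34.1% in either direction).

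The ratio of Dbp to Arntl counts within a library does not depend on library scaling. It was 18.3 and 18.3 in shDnajb9 and 7.84 and 3.89 in lacZ1. In shRictor it was 27 and 42.6 and in lacZ2 5.34 and 10.8. Every hairpin library was above every lacZ library, which also held for the CPM of Dbp alone. The Arntl counts in this ratio were only 22 to 61 per library. By CPM, 34.1% of all tested genes separated the hairpin from the lacZ libraries in either direction. The share of gene pairs whose ratio does so was not computed. With 2 libraries a group, an exact permutation test cannot go below 0.333 (two-sided), and none was run. Dbp over Per1 also separated shDnajb9, at 3.89 and 1.62, from lacZ1, at 0.487 and 0.612. It likewise separated shRictor, at 2.26 and 1.13, from lacZ2, at 0.451 and 1.09, though by little in the second libraries.

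**Figure D3:**
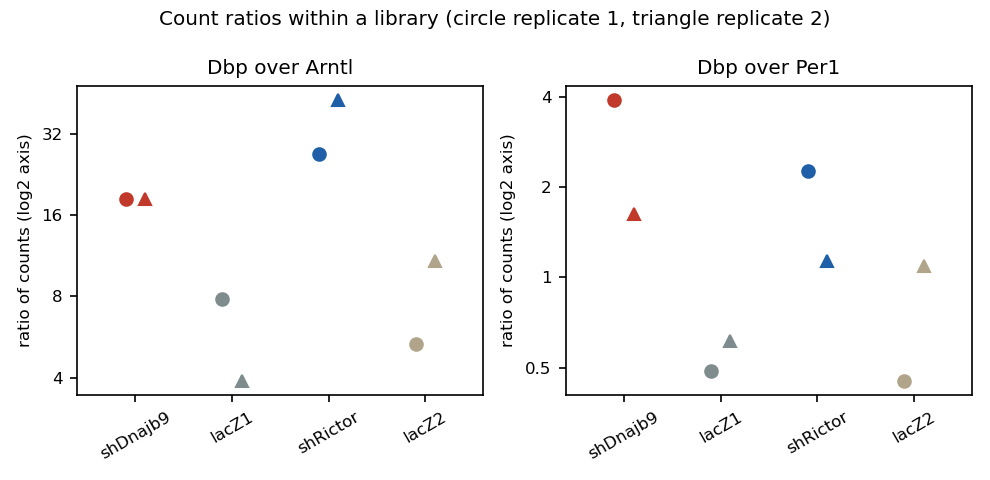
Ratio of the raw counts of Dbp to Arntl (left) and of Dbp to Per1 (right) in each library, on log2 axes, with shDnajb9 left of lacZ1 and shRictor left of lacZ2. The Dbp to Arntl ratio runs between 18.3 and 42.6 in the hairpin libraries and between 3.89 and 10.8 in the lacZ libraries.

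Relative to hepatocyte markers, the Dbp values of the hairpin and control libraries did not overlap in either comparison. Per 1000 counts of the 6 hepatocyte markers, Dbp had 1.41 and 1.43 counts in shDnajb9 and 1.03 and 0.607 in lacZ1. In shRictor it had 1.77 and 1.67 and in lacZ2 1.43 and 0.878. Hlf had 0.851 and 0.836 in shRictor, above 0.689 and 0.436 in lacZ2. In shDnajb9 Hlf had 0.260 and 0.562 against 0.548 and 0.336 in lacZ1, so those groups overlapped. Nr1d2 had 3.22 and 4.58 in shDnajb9 against 3.33 and 2.60 in lacZ1, and 4.63 and 3.57 in shRictor against 5.43 and 3.94 in lacZ2, so both comparisons overlapped on that scale. Tef overlapped too, with 3.46 and 4.41 in shDnajb9 against 4.06 and 2.64 in lacZ1, and 5.74 and 5.94 in shRictor against 6.46 and 4.06 in lacZ2. On that scale the differences of Nr1d2 and Tef were no larger than the spread between libraries. Since Alb and Apoa1 moved in opposite directions in shDnajb9, the marker sum is not a measure of hepatocyte content.

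The 2 libraries of a group agreed closely for some clock genes and not for others. Per1 differed by 0.88 on the log2 scale between the shDnajb9 libraries, by 0.65 in lacZ1 and by 1.04 in both shRictor and lacZ2, each time more than 84.7% to 95.8% of all tested genes in the same groups. Nr1d1 differed by 0.72 or 0.73 on the log2 scale in lacZ1, shRictor and lacZ2 and by 0.35 in shDnajb9. Per2 differed by 1.00 in shDnajb9 and 0.86 in shRictor but by 0.04 in lacZ2. For Nr1d2, Dbp and Tef the differences were between 0.04 and 0.47 in all 4 groups, where the median over all tested genes was between 0.26 and 0.39. Per1 was higher in the second library in shDnajb9 and shRictor and in the first library in lacZ1 and lacZ2, and Nr1d1 had the same pattern.

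**Figure D4:**
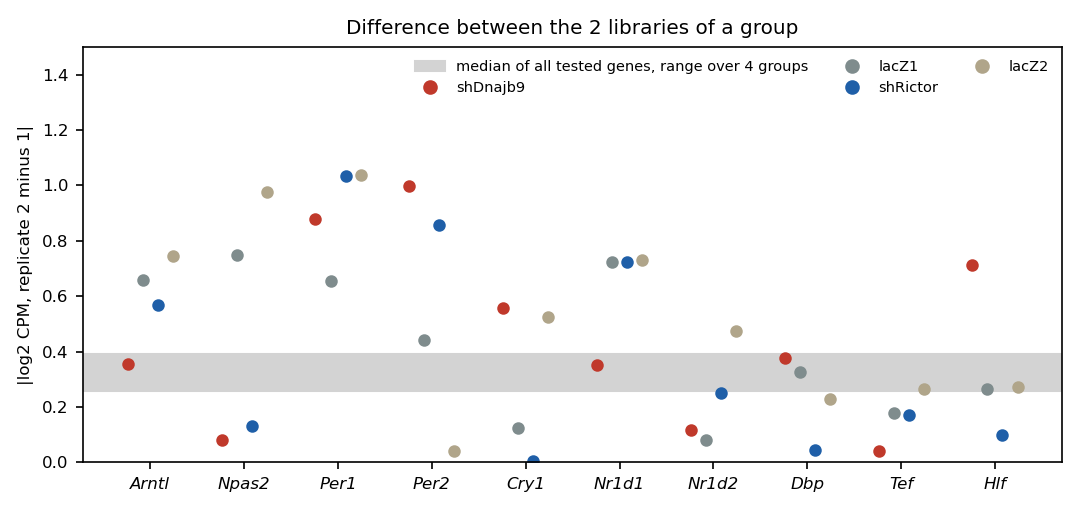
Absolute log2 difference in CPM between the 2 libraries of a group for each clock gene, with the groups in the order shDnajb9, lacZ1, shRictor and lacZ2 within a gene. The grey band spans the medians over all tested genes of the 4 groups (0.26 to 0.39), and Per1 lies above it in every group while Tef is at or below 0.27 in each.

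The control groups lacZ2 and lacZ1 differed in the age of the mice and were set against each other in the same way. None of the 10 genes was called in lacZ2 minus lacZ1 by edgeR, none had an unadjusted p under 0.05, and DESeq2 and limma-voom called none either. Of all tested genes 0% were called by edgeR, and DESeq2 called 1 and limma-voom 0. The largest log2 difference was that of Arntl, -0.55 ± 0.38, and Dbp differed by -0.10 ± 0.24. For the difference between the hairpin contrasts, none of the 10 genes was called by edgeR, DESeq2 or limma-voom, 2 of them (Per2 and Hlf) had an unadjusted p under 0.05 in edgeR, and 0.00726% of all tested genes, a single gene, were called. The standard error of that difference had a median of 0.41 over all tested genes, against 0.29 for each single contrast.

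Of 11 other clock genes, 5 were called higher, among them Ciart, Rora, Bhlhe41 and Nfil3, and 2 lower, Timeless and Tipin, in the mean of both contrasts, beside 36.2% of all tested genes called in either direction, and Nfil3 is named here after its value was seen. In shDnajb9 2 were called higher and 1 lower, and in shRictor 4 higher and 2 lower, beside 24.2% and 18.2% of all tested genes. With total counts 1 was higher and 3 lower in shDnajb9, 1 higher and 2 lower in shRictor and 2 higher and 3 lower in the mean. Ciart, a repressor of CLOCK and BMAL1, had 23.7 and 26.7 CPM in shDnajb9, above 10.8 and 11.6 CPM in lacZ1. In shRictor its libraries, at 12.4 and 23.9 CPM, were above those of lacZ2, at 8.96 and 8.21 CPM. It had a log2 fold change of 1.18 ± 0.30 in shDnajb9 and 1.09 ± 0.30 in shRictor (adjusted p = 0.014 and 0.0243 by edgeR), and its mean of 1.13 held under all 17 alternatives. Single contrasts of Ciart did not pass without lacZ1 replicate 1 (adjusted p = 0.118) or 2 (0.054) for shDnajb9, or without lacZ2 replicate 1 (0.112) or 2 (0.117) or shRictor replicate 2 (0.329) for shRictor, in edgeR.

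Timeless and Tipin are listed with the clock but are known in mammals as partners at the replication fork. Timeless had 6.71 and 8.45 CPM in shDnajb9, below 29.3 and 21.8 CPM in lacZ1. The shRictor libraries had 12.8 and 14.8 CPM and the lacZ2 libraries 23.4 and 25.4 CPM. Its mean fell by 1.28 on the log2 scale (SE 0.18, adjusted p = 0.000169 by edgeR) and that of Tipin by 0.88 (SE 0.23, adjusted p = 0.0105 by edgeR), beside the 6 of 6 proliferation markers that were lower in both contrasts. The part of proliferating cells in this was not tested. Rora, encoding ROR alpha, had a mean of 0.63 ± 0.16 (adjusted p = 0.00852 by edgeR), which did not pass without lacZ1 replicate 2 (adjusted p = 0.0508). Bhlhe41, the repressor DEC2, had a mean of 0.99 ± 0.27 (adjusted p = 0.0134 by edgeR), which did not pass without shDnajb9 replicate 1 (adjusted p = 0.0537). Clock itself, the partner of BMAL1, had 88.7 and 81.8 CPM in shDnajb9 against 87.8 and 116.1 CPM in lacZ1. Its shRictor values were 82.8 and 71.9 CPM, against 90.6 and 94.0 CPM in lacZ2. It is named after its value was seen, with log2 fold changes of -0.26 in each contrast (adjusted p = 0.437 and 0.502 by edgeR). Leaving out single libraries moved the count of other clock factors called higher in both directions. In shRictor it was smaller without either lacZ1, lacZ2 or shRictor library and larger without either shDnajb9 library. In shDnajb9 it was smaller without either lacZ1 library and larger without shDnajb9 replicate 2.

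Of 14 enzymes that modify clock proteins, 1 was called higher and 1 lower in the mean of both contrasts, 1 higher in shRictor and none in shDnajb9, where 1 had an unadjusted p under 0.05 in edgeR. These counts lie below the 36.2%, 18.2% and 24.2% of all tested genes called in the mean, shRictor and shDnajb9. With total counts none was called higher and 5 lower in the mean, 2 lower in shRictor and 1 lower in shDnajb9. Usp2, a deubiquitinase of period and cryptochrome proteins, had 39.9 and 62.6 CPM in shRictor against 18.4 and 23.0 CPM in lacZ2 (1.31 ± 0.29, adjusted p = 0.00733 by edgeR). In shDnajb9 it had 23.5 and 29.6 CPM against 27.3 and 18.7 CPM in lacZ1 (0.21 ± 0.29, adjusted p = 0.618 by edgeR). The shRictor call of Usp2 did not pass without lacZ2 replicate 1 (1.16, adjusted p = 0.0865) or shRictor replicate 2 (0.95, adjusted p = 0.0828). Csnk1e, casein kinase 1 epsilon, had a mean of -0.55 ± 0.19 (adjusted p = 0.0395 by edgeR), lost without lacZ1 replicate 1, shDnajb9 replicate 1, lacZ2 replicate 1 or shRictor replicate 1 (adjusted p = 0.19, 0.0945, 0.134 and 0.151).

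**Figure D5:**
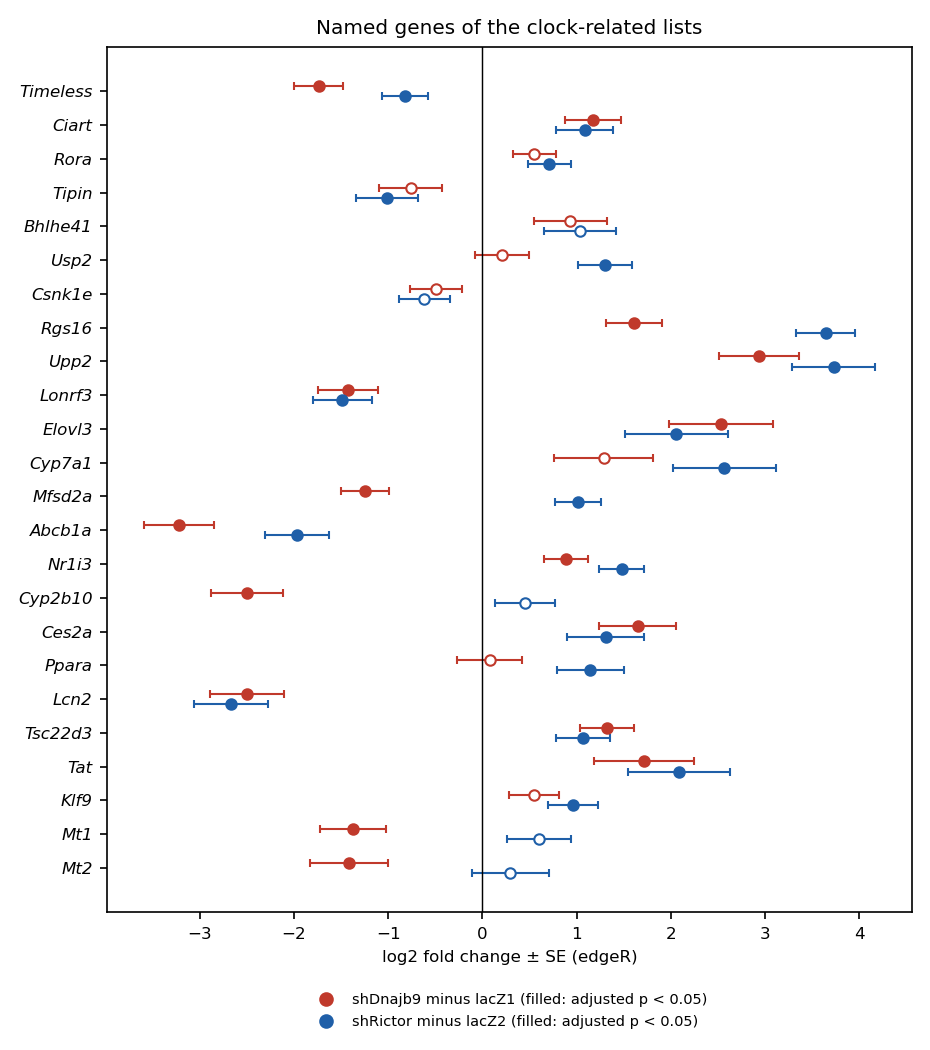
Log2 fold change with its standard error (edgeR, n = 2 libraries per group) of the named genes of 5 lists in shDnajb9 minus lacZ1 (red, upper) and shRictor minus lacZ2 (blue, lower), filled where the adjusted p was under 0.05. Ciart lies at 1.18 and 1.09, and Mfsd2a on opposite sides of 0, at -1.24 and 1.02.

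Downstream of the clock the lists moved unevenly. Of 20 genes known for rhythmic expression in liver, 7 were called higher and 5 lower in the mean of both contrasts, 3 higher and 7 lower in shDnajb9 and 7 higher and 1 lower in shRictor, beside 36.2%, 24.2% and 18.2% of all tested genes called. With total counts the mean had 5 higher and 9 lower, shDnajb9 3 and 10 and shRictor 5 and 3. Rgs16, a regulator of G protein signalling, had 29.98 and 49.9 CPM in shDnajb9 against 10.4 and 16.1 CPM in lacZ1, while shRictor had 118.8 and 130.1 CPM against 9.65 and 10.2 CPM in lacZ2. It rose by 1.61 ± 0.29 (adjusted p = 0.0025 by edgeR) and 3.64 ± 0.31 (adjusted p = 4.84e-05 by edgeR) on the log2 scale. The shDnajb9 call was at an adjusted p of 0.0527 without lacZ1 replicate 1, and the difference between the contrasts, 2.03 ± 0.41, did not pass (adjusted p = 0.163 by edgeR). Upp2, a uridine phosphorylase, rose by 2.94 ± 0.43 and 3.73 ± 0.44 (adjusted p = 0.000582 and 0.000209 by edgeR). It had 704.8 and 992.4 CPM in shDnajb9 against 83.2 and 138.6 CPM in lacZ1. It stood at 704.7 and 626 CPM in shRictor, against 31.6 and 68.6 CPM in lacZ2. Elovl3, a fatty acid elongase, had a mean of 2.30 ± 0.39 (adjusted p = 0.000707 by edgeR) and Cyp7a1, the rate-limiting enzyme of bile acid synthesis, a mean of 1.93 ± 0.38 (adjusted p = 0.002 by edgeR), both kept under all 17 alternatives. Single contrasts were less even. Cyp7a1 was called in shRictor (2.57, adjusted p = 0.00674 by edgeR) but not in shDnajb9 (1.29, adjusted p = 0.0903 by edgeR). Elovl3 was called in shDnajb9 (2.54, adjusted p = 0.0069 by edgeR) and in shRictor (2.06, adjusted p = 0.0206 by edgeR). DESeq2 did not call Elovl3 in shRictor (adjusted p = 0.0727), where the lacZ2 libraries had 5.58 and 31.1 CPM. Lonrf3, a ring finger protein, fell, with a mean of -1.46 ± 0.22 (adjusted p = 0.000312 by edgeR). Mfsd2a, a lysophospholipid transporter, had 21.2 and 25.4 CPM in shDnajb9 against 52.0 and 58.6 CPM in lacZ1. Its shRictor values were 86.1 and 114.3 CPM, against 42.6 and 56.4 CPM in lacZ2. Leaving out single libraries moved the number of rhythmic genes called lower in shDnajb9 in both directions. The number was smaller without either lacZ1 library or shDnajb9 replicate 1, and larger without shDnajb9 replicate 2 or either lacZ2 library. The number called higher there was 1 without lacZ1 replicate 1 and 5 without either lacZ2 library. In shRictor 3 were called higher without lacZ2 replicate 1 or shRictor replicate 2.

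Of 12 genes known as targets of the PAR bZIP factors, which overlap the rhythmic list in Por, Alas1 and Cyp7a1, 2 were called higher and 2 lower in shDnajb9 and 5 higher and 1 lower in shRictor, beside 24.2% and 18.2% of all tested genes called. With total counts 1 was higher and 6 lower in shDnajb9, and 2 higher and 1 lower in shRictor. Their median log2 fold change was -0.50 in shDnajb9 and 0.60 in shRictor, beside -0.05 and -0.02 over all tested genes. In shDnajb9 7 of the 12 had a negative log2 fold change, where the median over all tested genes was negative as well. Ces2a, a carboxylesterase, had a mean of 1.48 ± 0.29 (adjusted p = 0.00179 by edgeR), with 1037 and 514.7 CPM in shDnajb9 against 268.5 and 226.4 CPM in lacZ1. Nr1i3, the xenobiotic receptor CAR, had a mean of 1.18 ± 0.17 (adjusted p = 0.000168 by edgeR), but 74.9% of its exon sequence overlaps Tomm40l on the opposite strand and its counts are uncertain. Abcb1a, an efflux transporter, fell, with 7.97 and 7.31 CPM in shDnajb9 against 83.5 and 58.4 CPM in lacZ1, while shRictor had 10.1 and 21.8 CPM against 52.5 and 72.8 CPM in lacZ2 (mean -2.59 ± 0.25, adjusted p = 1.14e-05 by edgeR). Cyp2b10, a cytochrome P450 under the control of CAR, had 1.89 and 1.94 CPM in shDnajb9 against 9.57 and 12.3 CPM in lacZ1. It stood at 9.30 and 8.61 CPM in shRictor, against 4.42 and 8.46 CPM in lacZ2. Ppara, the fatty acid receptor, was called in shRictor alone (1.15 ± 0.35, adjusted p = 0.0389 by edgeR, against 0.08 ± 0.35 in shDnajb9), and the difference of 1.07 ± 0.49 did not pass (adjusted p = 0.46 by edgeR). The call of Ppara was lost without either lacZ1 library, lacZ2 replicate 1 or either shRictor library (adjusted p between 0.0621 and 0.236). The number of targets called higher in shDnajb9 was smaller without either lacZ1 or either shDnajb9 library and larger without either lacZ2 library. The number called lower was larger without shDnajb9 replicate 1 or either lacZ2 library. The number called higher in shRictor was 2 without either lacZ1 library, lacZ2 replicate 1 or shRictor replicate 2, and 3 without shRictor replicate 1.

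Glucocorticoids are known to induce Per1 and to set the phase of the liver clock, and 12 genes that respond to them were followed. In the mean of both contrasts 3 were called higher and 1 lower, in shDnajb9 2 higher and 3 lower, and in shRictor 3 higher and 1 lower, beside 36.2%, 24.2% and 18.2% of all tested genes called. With total counts the mean had 2 higher and 6 lower, shDnajb9 1 and 4 and shRictor 1 and 1. Tsc22d3, a glucocorticoid-induced leucine zipper protein, had a mean of 1.20 ± 0.20 (adjusted p = 0.000648 by edgeR) and Tat, tyrosine aminotransferase and also 1 of the 6 hepatocyte markers, had 2062 and 2944 CPM in shDnajb9 against 638 and 887.4 CPM in lacZ1. Its shRictor values were 1225 and 2289 CPM, against 196.8 and 631 CPM in lacZ2. Klf9, a zinc finger factor, had a mean of 0.75 ± 0.19 (adjusted p = 0.00763 by edgeR). Lcn2, lipocalin 2, which is also an acute phase protein, fell, with a mean of -2.58 ± 0.28 (adjusted p = 2.45e-05 by edgeR). Mt1, a metallothionein, and Mt2 were called lower in shDnajb9, where Tsc22d3 and Tat were called higher. Mt1 and Mt2 had log2 fold changes of -1.38 and -1.42 there (adjusted p = 0.0144 and 0.0279 by edgeR). In shRictor they had 0.60 and 0.30, and neither was called (adjusted p = 0.257 and 0.668 by edgeR). Leaving out single libraries, the shDnajb9 values ran from -1.73 to -0.95 for Mt1 and from -1.87 to -0.80 for Mt2. The classical responders Fkbp5, Sgk1 and Dusp1, named after their values were seen, had log2 fold changes between -0.33 and 0.22 in both contrasts, and none was called. Without single libraries the number called higher was 0 (without lacZ1 replicate 1) or 1 (without lacZ1 replicate 2 or shDnajb9 replicate 1) in shDnajb9 and 0 in shRictor (without lacZ2 replicate 1 or shRictor replicate 2), and the number called lower in shDnajb9 was 1 without lacZ1 replicate 2 or shDnajb9 replicate 1.

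By likeness of profile over the 8 libraries, the genes closest to Dbp among 11847 compared were Hgfac, Ngef, Atp5sl, Cadm4 and Igfbp4, with a root mean square difference of centred log2 CPM between 0.08 and 0.12, where Dbp itself ranged over 1.75. The genes closest to Arntl were Dusp6, Rhoj, Naa20, Ogn and Zfp948, at 0.19 to 0.22, over a range of 1.66 for Arntl. No other clock gene was among them.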

How the data were processed

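Total RNA was depleted of ribosomal RNA and sequenced, and the authors deposited 1 table of raw read counts per gene for each library. Adapters were trimmed with cutadapt and counts made with HTSeq on mm10, per the submitters' processing notes. The aligner, annotation and strand setting are not given in the sources used here. HTSeq lines that name no gene held 48.4% to 63.7% of reads and were left out. Counts were tested with edgeR 4.0.16 (R 4.3.3): TMM scaling, low genes removed at a minimum count of 10 (13767 of 24062 entries kept), 4 group means over 8 libraries, the robust quasi-likelihood test and Benjamini-Hochberg adjustment over all tested genes at 0.05. DESeq2 1.42.0, limma-voom 3.58.1, other scalings and filters, replicate blocks and leaving out each library were alternatives. The model was tested on simulated data with 100 genes changed at each size, far fewer than were called here. A true log2 change of 1 was recovered for 25% of them in shDnajb9 minus lacZ1 and 16.2% in shRictor minus lacZ2. For a change of 2 it was 88.9% and 89.8%, so a gene that was not called can still have changed. CPM and fold changes were computed here. Exon lengths and overlaps came from GENCODE M21. The genes and lists were chosen with earlier results of these data known. List genes are named where called, at most 6 a list by smallest p, and 1 of them is not reported here. Replicate numbers were not used as pairs in the main fit. The correlation of deviations of same-numbered libraries was -0.30 for shDnajb9 and lacZ1 and -0.03 for shRictor and lacZ2. It was 0.32 for shDnajb9 and shRictor and 0.20 for lacZ1 and lacZ2, and -0.33 to 0.32 over all 6 pairs of groups. These values cannot decide whether libraries were paired, in this or another order.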

Additional observations from a re-analysis of the deposited data

Results flagged for a closer look

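In some list genes every library was lower in shDnajb9 than in lacZ1 and higher in shRictor than in lacZ2. Por and Alas1, outside the rule for named genes, had this pattern, and so did Mfsd2a, Cyp2b10 and Mt1. Of all tested genes, 35.1% were lower in every shDnajb9 library than in lacZ1, and 28.8% were higher in every shRictor library than in lacZ2. The share with both was not computed, so the pattern cannot be called particular to these genes. For Mfsd2a, a lysophospholipid transporter, the shRictor contrast exceeded the shDnajb9 contrast by 2.26 ± 0.35 on the log2 scale (SE, unadjusted p = 2.25e-05 and adjusted p = 0.122 in the edgeR model). For Cyp2b10, a cytochrome P450, the difference was 2.95 ± 0.50 (adjusted p = 0.163 by edgeR). For Mt1, a metallothionein, it was 1.98 ± 0.49 (adjusted p = 0.318 by edgeR), with 89.5 and 123.6 CPM in shDnajb9 against 205.7 and 348.3 CPM in lacZ1. In shRictor Mt1 had 452.7 and 300.2 CPM against 277.6 and 218.8 CPM in lacZ2. None of these 3 differences passed the adjusted threshold.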

How the results depend on the processing

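Dbp in both contrasts and Hlf in shRictor were called under all 18 alternatives. Of the 10 clock genes, 2 were called in shDnajb9, 1 with total counts, 4 with the crossed replicate block (numbers of both hairpin groups swapped, chosen after seeing the data) and 1 to 3 without single libraries. In shRictor 3 were called, 5 with DESeq2, 6 with the crossed block and 2 to 5 without single libraries, and in the mean 4, or 4 to 5. The replicate block gave 2, 3 and 4, with 3289 and 2470 calls over all genes, and the crossed block 4541 and 3280. Total counts split the calls into 610 higher and 3354 lower in shDnajb9 (1597 and 1728 with TMM) and 436 and 2810 in shRictor (1006 and 1502). Signs changed with total counts for Cry1 (-0.15), Hlf (-0.00029), Usp2 (-0.21) and Ppara (-0.32) in shDnajb9, Per1 (-0.014) and Mt2 (-0.12) in shRictor, and Per2 (-0.0024) and Nr1d1 (-0.16) in the mean. Without shDnajb9 replicate 1 and lacZ2 replicate 1 together they changed for Per2 (0.25) and Nr1d1 (0.059) in shDnajb9, Per1 in the mean (0.30), Arntl in the difference (0.45) and Dbp in lacZ2 minus lacZ1 (0.0076). Leaving out single libraries, log2 values that changed sign ran in shDnajb9 from -0.75 to 0.26 for Per2, -0.42 to 0.29 for Nr1d1, -0.025 to 0.70 for Hlf, -0.037 to 0.49 for Usp2 and -0.27 to 0.36 for Ppara. In shRictor they ran from -0.18 to 1.04 for Per1 and -0.29 to 0.72 for Mt2, and in the mean from -0.49 to 0.11 for Per1. In the difference they ran from -0.50 to 0.30 for Arntl, -1.22 to 0.038 for Npas2 and -0.31 to 0.18 for Nr1d2. In lacZ2 minus lacZ1 they ran from -1.03 to 0.24 for Npas2, -1.02 to 0.014 for Per1, -0.62 to 0.18 for Nr1d1, -0.20 to 0.29 for Nr1d2, -0.25 to 0.059 for Dbp and -0.10 to 0.18 for Tef. The causes were not tested. Npas2 had between 2 and 10 reads in each library.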
